A study of Mus musculus with 2 samples.

Results

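Metallothioneins and antioxidant enzymes were followed in tdTomato-labelled joint cells of the mouse, as 10 genes of the 32286 features counted: Mt1, Mt2, Gpx3, Gpx1, Sod2, Sod3, Hmox1, Nqo1, Txnip and Cat. Each symbol matched 1 feature in both count tables. The genes were chosen by name with earlier results of these libraries in view, among them the level of Mt1 in each library, so differences between the libraries are given as descriptions without a test. In Procr-CreER;tdTomato mice, tamoxifen activates a Cre recombinase made where Procr is active, which permanently marks the cell and its progeny with red tdTomato. Tamoxifen was given at 4 weeks of age. The pulse library came from cells taken 2 days later and the trace library from cells taken 4 weeks later, so the mice also differed in age. Each library pooled 3 mice, and there was 1 library per group. Viable red cells lacking CD45, Ter119 and CD31, the surface proteins of leukocytes, red cells and endothelium, were sorted from digested knee cartilage. The labels' protocol also speaks of periosteum.

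Metallothioneins are small cysteine-rich proteins that bind zinc and copper, and their genes are switched on by metals through the factor MTF1, by glucocorticoids and by stress. Superoxide dismutases turn superoxide into hydrogen peroxide, which catalase and the selenium-containing glutathione peroxidases break down. Heme oxygenase and the quinone reductase NQO1 are targets of NRF2, the main factor of the oxidative stress response, and TXNIP binds and restrains thioredoxin. In cartilage, chondrocytes live with little oxygen and rely on such enzymes to limit damage to their matrix.

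Mt1 and Mt2 lie beside each other on the forward strand of chromosome 8. In GENCODE M21, on GRCm38, Mt2 spans chr8:94172664-94173568 and Mt1 spans chr8:94179082-94180327, with 5513 bases and 0 annotated genes between them. Their longest transcripts share no run of bases longer than 20. Mt2 overlaps the antisense gene Gm45774 over 749 bases, and Txnip overlaps the antisense gene Gm15441 over its whole span of 3927 bases. Whether the counting used strand is not given in the sources used here, and the antisense features held 17 and 84 UMIs in the pulse library and 8 and 84 in the trace library. The stretches ahead of both metallothionein genes are shown because they carry the short motifs through which metals act. They come from RefSeq promoter windows (GRCm38.p6), which held 8 of the 10 genes. They lie on the forward strand, chr8:94178839-94179078 for Mt1 and chr8:94172368-94172607 for Mt2. Capitals mark matches to the core of the metal response element (TGCGCNC or TGCACNC) or of the antioxidant response element (TGACNNNGC), searched on both strands.
Mt1: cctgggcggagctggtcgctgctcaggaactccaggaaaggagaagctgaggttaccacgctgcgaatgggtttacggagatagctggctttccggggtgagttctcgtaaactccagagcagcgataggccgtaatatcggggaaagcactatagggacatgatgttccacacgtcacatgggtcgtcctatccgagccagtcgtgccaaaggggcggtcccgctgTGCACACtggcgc
Mt2: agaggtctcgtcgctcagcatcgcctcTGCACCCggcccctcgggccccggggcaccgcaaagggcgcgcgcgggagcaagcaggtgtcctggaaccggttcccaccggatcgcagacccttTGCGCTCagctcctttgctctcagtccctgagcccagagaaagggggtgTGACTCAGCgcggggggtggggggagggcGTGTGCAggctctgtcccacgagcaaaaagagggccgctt

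The Mt1 stretch held 1 metal response core, TGCACAC, starting 23 bases before the RefSeq start, and 2 more matches lay within the next bases of the window, past that start. The Mt2 stretch held 3 metal response cores, starting 223, 128 and 50 bases before the start, the last read on the reverse strand as GTGTGCA, and 1 more lay past the start. It also held 1 antioxidant response core, TGACTCAGC, starting 79 bases before the start. The whole windows of 300 bases thus held 3 metal response cores for Mt1 and 4 for Mt2, and 2.00% of the 27025 promoter windows held 3 or more. GENCODE lists 3 transcripts for Mt1 and 2 for Mt2, and 1 RefSeq start per gene was used. Matches past that start may lie ahead of another, so the counts ahead of it do not rank the genes. A single match is common, at 25.6% of windows for the metal response core and 12.5% for the antioxidant response core. Txnip had 1 metal response core, and the windows of Gpx3, Gpx1, Sod2, Nqo1 and Cat held neither motif. Each window of 300 bases ran past its RefSeq start. For Gpx3, Gpx1 and Sod2 the first 240 bases of the window also overlapped their own GENCODE genes, so even these did not lie wholly ahead of the annotated gene.

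The pulse library had 6863 barcodes with 23306063 unique molecular identifiers (UMIs, each standing for 1 captured RNA molecule), and the trace library had 10423 barcodes with 40284041 UMIs. Cells with 500 or more detected genes and at most 10% mitochondrial UMIs were kept, which left 6533 in the pulse library (median 2837 UMIs) and 9247 in the trace library (median 3645). The libraries shared 16 barcodes. A cell took the class whose markers it held most fully, given a lead over the next class, and classes are called "-like" because they rest on markers alone. Superficial-zone-like chondrocytes made up 3708 pulse and 4350 trace cells, deeper-zone-like chondrocytes 687 and 127, fibroblast-like cells of the synovial lining 306 and 923, and those of loose connective tissue 167 and 576. These 4 classes had at least 50 cells in both libraries and were compared. No class was given to 506 pulse and 1002 trace cells with too few markers, to 276 and 686 that lay between classes, and no zone to 789 and 369 chondrocytes. A median superficial-zone-like cell held 6 of 10 superficial markers and 2 of 9 deeper markers in the pulse library, and 7 and 2 in the trace library. Deeper-zone-like cells held a median of 2 and 7 of the same lists in the pulse library and 3 and 7 in the trace library. Although the sort gated against CD31 and CD45, the trace library also held 255 endothelial-like, 254 neutrophil-like, 168 B-lineage-like and 111 other leukocyte-like cells, with 256 mural-like and 117 osteoblast-like cells. The pulse library held 41 endothelial-like, 3 neutrophil-like, 0 B-lineage-like and 2 other leukocyte-like cells, with 23 mural-like and 18 osteoblast-like cells. The sorted cells were therefore a mixture of classes. Whether the cells of each class carried the label was not tested. The libraries stood apart in 2 further ways. The male transcript Ddx3y was at 184 CPM (UMIs of a gene per 1000000 UMIs) in the pulse and 0.331 in the trace library, and the female transcript Xist at 0.130 and 360 CPM. Transcripts associated with ribosomal RNA took 0.961% of pulse and 8.89% of trace UMIs, and all 6 of them were at least 2-fold higher in the trace library in each compared class. With 1 library per group, the time since tamoxifen, age, sex and library preparation cannot be told apart in any ratio below.

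Over all cells Mt1 was the member that differed most between the libraries, at 3473 CPM in the pulse and 622 in the trace library. The gap was widest in deeper-zone-like cells. These were 10.5% of pulse and 1.37% of trace cells. They held 51018 of the 80152 Mt1 UMIs of the pulse library and 709 of the 24428 of the trace library. The value over all cells thus mixes the level with the make-up of each library, and their parts were not tested. A level is the sum of a gene's UMIs over the cells of a class, scaled to CPM by the total UMIs of those cells, with an exact Poisson 95% interval that covers counting error only. In the pulse library Mt1 stood at 9683 CPM (9599 to 9767, 51018 UMIs) in deeper-zone-like cells, 1969 in loose fibroblast-like, 1603 in lining fibroblast-like and 1125 in superficial-zone-like cells. In the trace library the same classes held 848 CPM (787 to 913, 709 UMIs), 1709, 825 and 392. The pulse order ran from deeper-zone-like down to superficial-zone-like cells with no overlap of neighbouring intervals, whereas in the trace library the deeper-zone-like and lining intervals overlapped. The trace level was thus 11.4-fold lower (10.6 to 12.3) in deeper-zone-like cells and 2.87-fold lower (2.79 to 2.95) in superficial-zone-like cells. It was 1.94-fold lower in lining fibroblast-like and 1.15-fold lower in loose fibroblast-like cells. This last direction turned, to a log2 ratio of 0.12, when the median ratio over all genes was set to 1.

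Mt2, the neighbouring metallothionein gene, followed Mt1 in the chondrocytes but not in the fibroblasts. In deeper-zone-like cells it stood at 1689 CPM in the pulse and 228 in the trace library, 7.39-fold lower (6.41 to 8.58). In superficial-zone-like cells it stood at 275 and 173 CPM, a ratio of trace over pulse of 0.628 (0.599 to 0.659). The lining fibroblast-like cells held 420 and 392 CPM, with a ratio of 0.932 whose interval (0.828 to 1.05) included no difference. In loose fibroblast-like cells Mt2 was higher in the trace library, at 964 against 690 CPM, a ratio of 1.40 (1.22 to 1.61). Under classes from joint clustering that log2 ratio of 0.48 became -0.07.

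**Figure D1:**
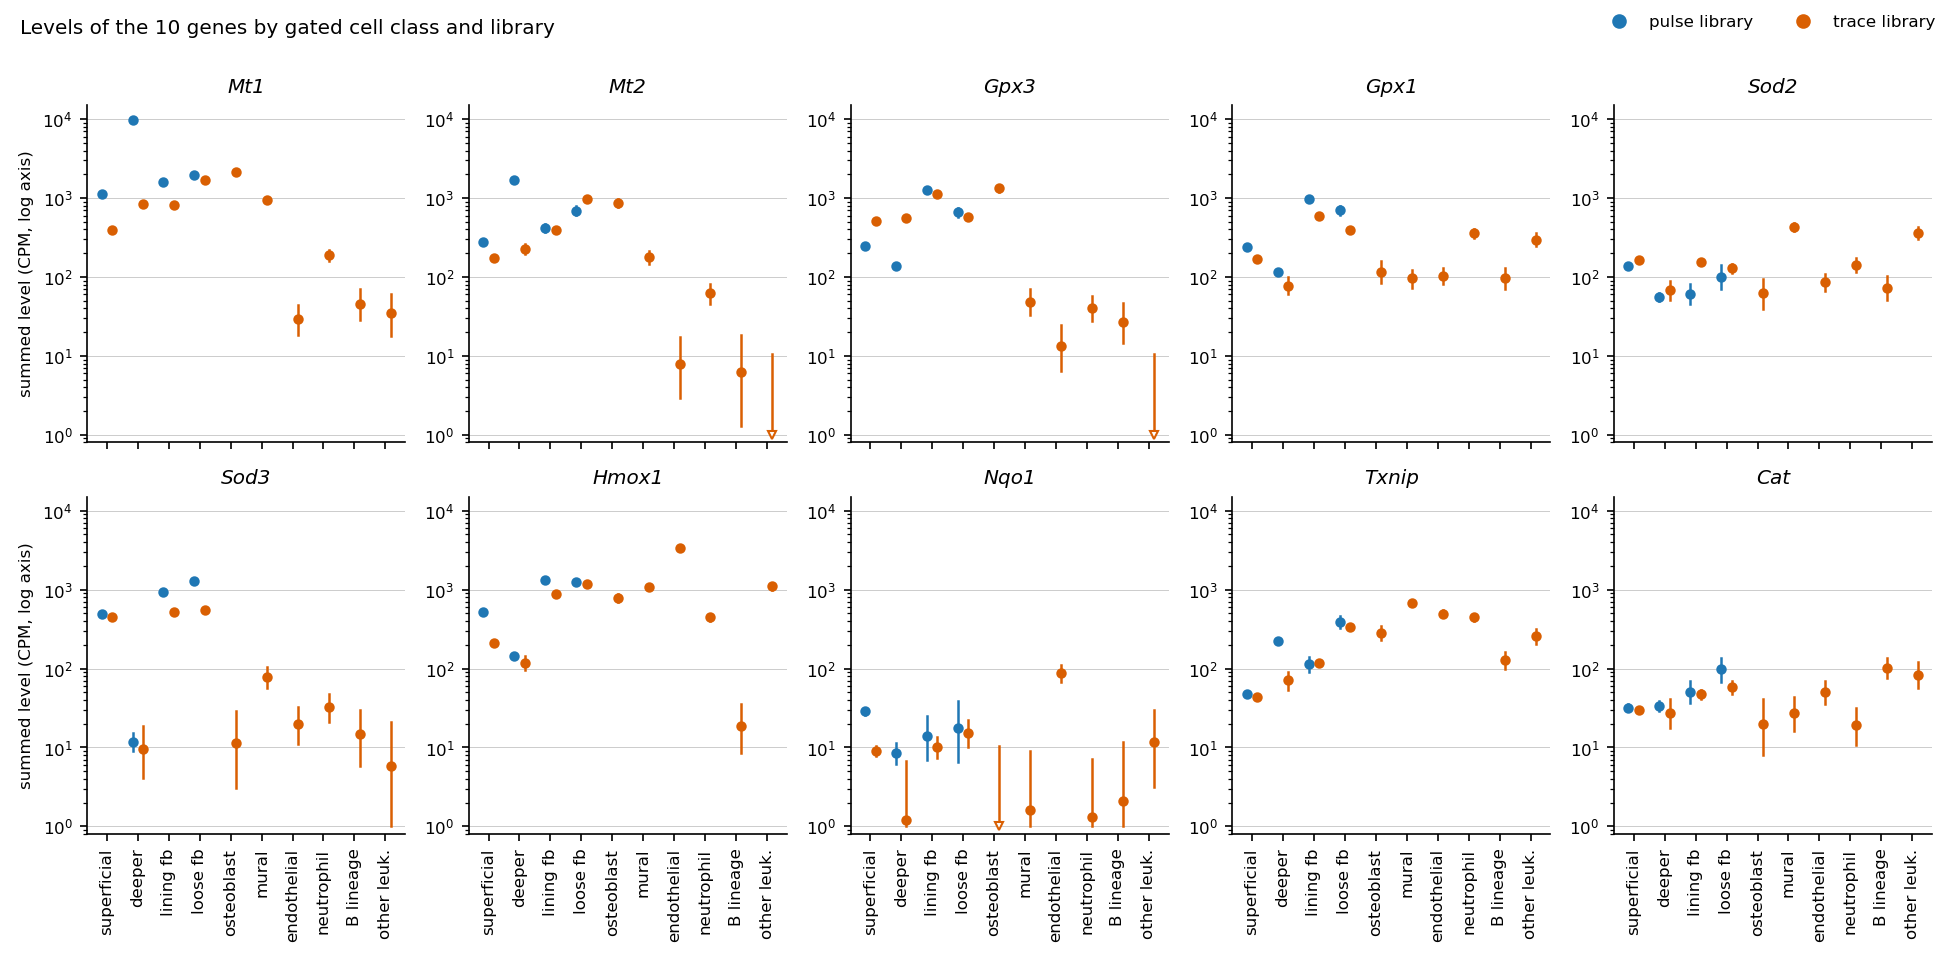
Summed level of each of the 10 genes (CPM, log axis) in each cell class with at least 50 cells, for the pulse (blue) and trace (orange) library; lines are exact Poisson 95% intervals and open triangles on the base mark classes with no UMI. Classes from osteoblast to other leukocytes have a trace value only. The pulse point of Mt1 in deeper-zone-like cells, at 9683 CPM, is the highest in any panel, and Hmox1 and Nqo1 peak in endothelial-like cells.

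The trace library gave levels in 6 further classes. Mt1 was highest in osteoblast-like cells at 2120 CPM (1970 to 2278), above the loose fibroblast-like cells. Mural-like cells, the cells around vessels, stood at 945 CPM and neutrophil-like cells at 189. B-lineage-like cells at 46.0 CPM, other leukocyte-like cells at 34.7 and endothelial-like cells at 29.1 (18.2 to 44.1) had overlapping intervals at the bottom of the order. Mt2 was highest in loose fibroblast-like cells at 964 CPM and osteoblast-like cells at 862, which overlapped, and other leukocyte-like cells held 0 UMIs, with an upper bound of 10.7 CPM.

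Mt1 was carried unevenly by single cells. To compare shares of cells, each cell was thinned to 2000 UMIs and shallower cells were left out. Mt1 was then seen in 76.5% of 650 deeper-zone-like pulse cells and 33.9% of 118 trace cells, and in 42.4% of 2871 and 26.7% of 3777 superficial-zone-like cells. Among loose fibroblast-like cells the shares were 71.8% of 71 and 68.0% of 422 cells. Endothelial-like trace cells, the class with the lowest level, showed Mt1 in 3.90% of cells. The variance of Mt1 over its mean was 38.6 in deeper-zone-like pulse cells, 12.5 in trace cells, and 13.7 and 7.68 in superficial-zone-like cells, against 1.71 and 1.48 for Sod3 in the latter. The tenth of deeper-zone-like cells richest in Mt1 held 46.0% of its UMIs in the pulse and 76.6% in the trace library. Both measures shift with the mean count, so they do not rank the libraries or the genes by unevenness. In thinned superficial-zone-like pulse cells that mean was 2.25 UMIs for Mt1 and 0.97 for Sod3. Before thinning, the median deeper-zone-like cell held 25.9 Mt1 UMIs per 10000 in the pulse and 1.04 in the trace library. More deeply read deeper-zone-like pulse cells also held more Mt1 per UMI, at 4981 CPM in the shallowest tercile of cells, 9357 in the middle and 11262 in the deepest. All of these stood above the trace level of the class.

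**Figure D2:**
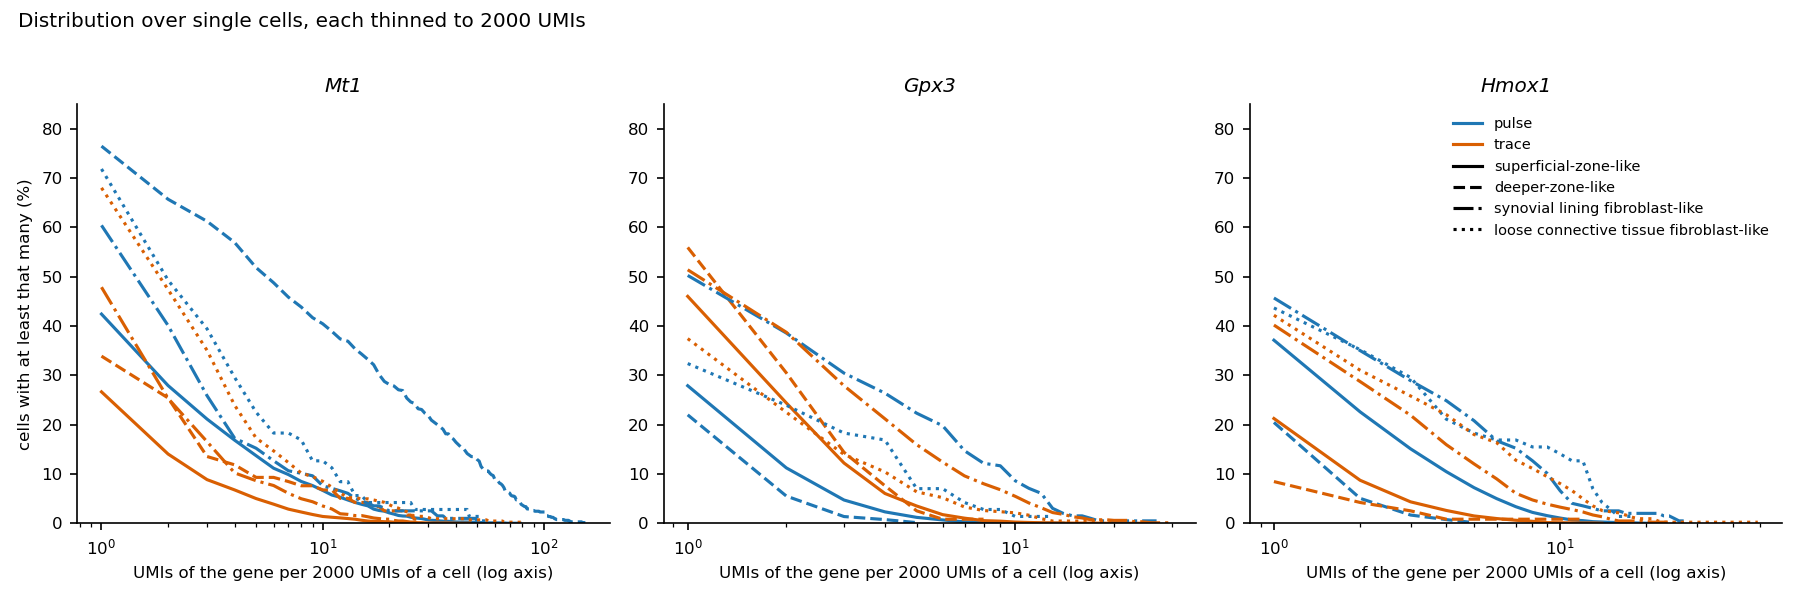
Percent of cells (vertical axis) with at least a given number of Mt1, Gpx3 or Hmox1 UMIs per 2000 UMIs of the cell (log axis), by class (line style) and library (colour). The Mt1 curve of deeper-zone-like pulse cells starts at 76.5% and runs out far beyond the others; the Gpx3 curves of both chondrocyte classes lie higher in the trace library.

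Cells with Mt1 tended to hold Mt2. Among thinned superficial-zone-like pulse cells, Mt2 was seen in 44.8% of cells with Mt1 and 6.11% of cells without it, and in the trace library in 40.6% and 6.39%. Spearman's rho between the pair over cells was 0.57 and 0.47 in superficial-zone-like cells and 0.84 and 0.45 in deeper-zone-like cells, pulse value first. These are descriptions, since the cells of a library share its preparation. The number of Mt1 UMIs per Mt2 UMI differed by class and library. It was 5.73 (5.61 to 5.86) in deeper-zone-like pulse cells and 3.71 (3.16 to 4.38) in trace cells, and 4.09 (3.94 to 4.25) and 2.27 (2.18 to 2.36) in superficial-zone-like cells. The lining fibroblast-like cells had 3.82 and 2.11, and the loose fibroblast-like cells 2.85 and 1.77. The trace value was lower in each of the 4 classes, with intervals that did not overlap. Among trace classes with at least 20 Mt2 UMIs, mural-like cells stood highest, at 5.35 (4.35 to 6.62). B-lineage-like cells, with 3 Mt2 UMIs, gave 7.33 (2.20 to 38.3). The ratio is of captured transcript ends and does not rank the genes by molecules made.

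**Figure D3:**
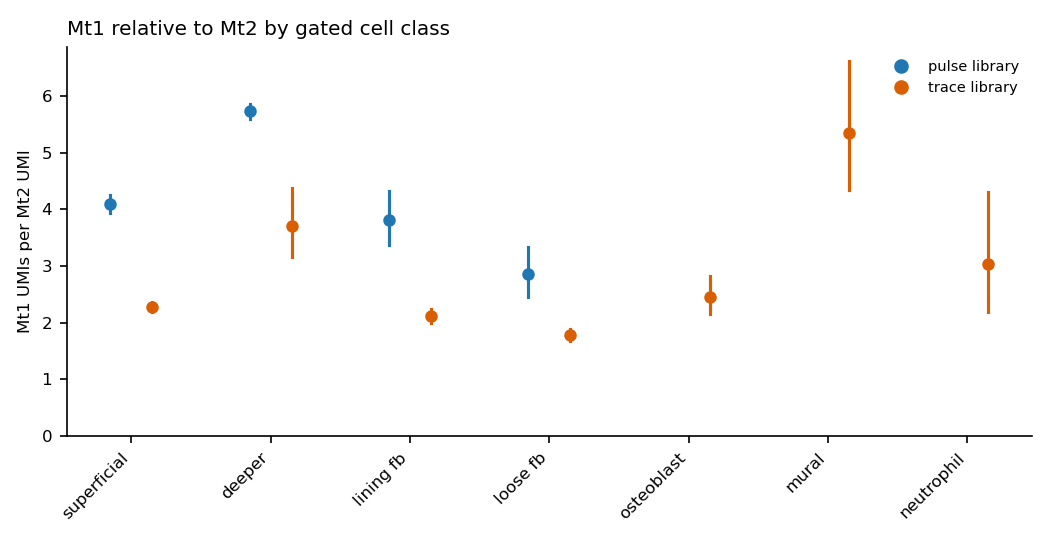
Mt1 UMIs per Mt2 UMI in each class with at least 50 cells and 20 Mt2 UMIs, for the pulse (blue) and trace (orange) library, with exact 95% intervals. The trace point lies below the pulse point in all 4 classes that have both, for example 2.27 against 4.09 in superficial-zone-like cells.

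Genes of metal handling were mostly lower in the trace library by less than 2-fold. Of 18 such genes, 12 reached 20 CPM in superficial-zone-like cells, of which 0 were at least 2-fold higher and 2 at least 2-fold lower, with a median log2 ratio of -0.48 against -0.24 over all genes. In deeper-zone-like cells the counts were the same and the median was -0.69 against -0.40. In lining fibroblast-like cells 0 of 11 were higher and 2 lower, and in loose fibroblast-like cells 2 of 11 were higher and 3 lower. Over all genes at 20 CPM or more, 8.86% fell short of the pulse level by 2-fold or more in superficial-zone-like, 21.2% in deeper-zone-like, 10.1% in lining and 15% in loose fibroblast-like cells, and 1.99%, 3.31%, 1.84% and 3.85% were at least 2-fold higher. The share of lower metal handling genes was thus below that over all genes in deeper-zone-like cells and above it in the other compared classes. Each share rests on 2 or 3 genes, so nothing is read from these differences. Slc30a1, the zinc exporter that MTF1 also switches on, stood at 37.2 and 14.8 CPM in superficial-zone-like cells, and was 5.06-fold lower (2.53 to 11.8, 255 and 8 UMIs) in deeper-zone-like cells. Slc39a1, a zinc importer, stood at 132 and 56.2 CPM in superficial-zone-like cells and was at least 2-fold lower in each of the 4 classes. Mtf1 itself had a ratio of 0.599 (0.523 to 0.686) in superficial-zone-like cells, and the copper importer Slc31a1 had 0.627.

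Genes induced by glucocorticoids, another class of metallothionein inducers, showed 0 higher and 1 lower of 8 measured in superficial-zone-like cells, and 0 higher and 2 lower of 9 in deeper-zone-like cells. These shares lay near the 8.86% and 21.2% of all genes that were lower, and the median log2 ratios were -0.34 against -0.24 and -0.62 against -0.40 over all genes. Tsc22d3, which encodes the glucocorticoid-induced leucine zipper, was 2.28-fold lower (2.09 to 2.49) in superficial-zone-like cells, and its ratio was 0.467 in deeper-zone-like cells. Fkbp5, a co-chaperone of the glucocorticoid receptor, had ratios of 0.635 and 0.358 in these classes, the latter on 141 and 8 UMIs. The clock gene Per1 stood the other way in superficial-zone-like cells, with a ratio of 1.61, and the cell cycle inhibitor Cdkn1a had 0.570. In the lining and loose fibroblast-like cells 1 of 7 and 0 of 8 were higher and 1 and 0 lower. Over all genes of these classes 1.84% and 3.85% were higher and 10.1% and 15% lower. These counts rest on at most 1 gene, so nothing is read from them.

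Gpx3, the secreted glutathione peroxidase, was the one member at least 2-fold higher in the trace library in both chondrocyte classes. In superficial-zone-like cells it was at 249 CPM (240 to 258) in the pulse and 515 (505 to 525) in the trace library, a ratio of 2.07 (1.98 to 2.16). In deeper-zone-like cells it was at 137 and 557 CPM, a ratio of 4.08 (3.62 to 4.59). In the fibroblasts it differed little, with 1253 and 1128 CPM in lining and 663 and 581 CPM in loose fibroblast-like cells, ratios of 0.900 (0.840 to 0.965) and 0.876 (0.758 to 1.02). The pulse order from lining through loose fibroblast-like to superficial- and deeper-zone-like cells had no overlapping neighbours, whereas in the trace library the loose fibroblast-like, deeper- and superficial-zone-like levels formed a chain of overlapping intervals. Osteoblast-like trace cells held the most, 1326 CPM. The share of thinned cells with Gpx3 was 27.9% and 46.0% in superficial-zone-like cells and 22.0% and 55.9% in deeper-zone-like cells. Endothelial-like trace cells showed it in 0.649%. In superficial-zone-like trace cells, the level rose with depth, from 353 CPM in the shallowest to 596 CPM in the deepest tercile of cells. Those terciles stood at 292 and 246 CPM in the pulse library. In the trace library the deeper-zone-like cells also held more of the superficial marker list, at 2603 against 885 CPM summed, and more of the osteoblast list, at 489 against 165 CPM. The part of these in the Gpx3 ratio was not tested.

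Gpx1, the intracellular glutathione peroxidase, was lower in the trace library in every compared class, by less than 2-fold. It stood at 967 and 584 CPM in lining fibroblast-like, 702 and 397 in loose fibroblast-like, 240 and 171 in superficial-zone-like and 116 and 77.7 in deeper-zone-like cells. The order of these 4 classes was the same in both libraries. The ratios ran from 0.566 in loose fibroblast-like cells to 0.712 in superficial-zone-like cells.

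Cat, which encodes catalase, was low in all joint classes. Superficial-zone-like cells held 31.8 and 30.2 CPM and deeper-zone-like cells 33.8 and 27.5 CPM, with intervals of the ratio that included no difference. Loose fibroblast-like cells were highest among the compared classes, at 97.3 and 58.2 CPM, a ratio of 0.598 (0.401 to 0.912). B-lineage-like trace cells held the most, at 103 CPM.

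Of the superoxide dismutases, the mitochondrial Sod2 was higher in the trace library in lining fibroblast-like cells, at 155 against 60.9 CPM, a ratio of 2.55 (1.90 to 3.49, 48 pulse UMIs). The shallowest tercile of these cells went the other way, at 127 CPM in the pulse and 61.3 in the trace library. The middle tercile held 45.1 and 163 CPM and the deepest 47.3 and 180. In superficial-zone-like cells Sod2 stood at 139 and 163 CPM, a ratio of 1.18 (1.11 to 1.25). In deeper-zone-like and loose fibroblast-like cells the ratios of 1.21 and 1.28 had intervals that included no difference. Mural-like cells led the trace library at 430 CPM, beside other leukocyte-like cells at 362, with overlapping intervals.

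The extracellular Sod3 divided the chondrocyte zones. Superficial-zone-like cells held 494 CPM (481 to 507) in the pulse and 448 (439 to 457) in the trace library, whereas deeper-zone-like cells held 11.8 (9.02 to 15.1) and 9.57 (4.13 to 18.9) CPM. Thinned to equal depth, 52.0% and 49.9% of superficial-zone-like cells and 2.77% and 0.847% of deeper-zone-like cells showed Sod3. The zone gap held in both libraries while Mt1 ran the opposite way across the same cells. Deeper-zone-like levels were near those of endothelial-like trace cells, at 19.8 CPM. The fibroblasts held most in the pulse library, 1279 CPM in loose and 928 in lining fibroblast-like cells, and stood at 554 and 523 CPM in the trace library. These were 2.31-fold (2.06 to 2.58) and 1.77-fold (1.63 to 1.93) lower.

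Hmox1, the inducible heme oxygenase, was lower in trace superficial-zone-like cells, at 211 against 523 CPM, 2.48-fold lower (2.39 to 2.58). Deeper-zone-like cells had less in both libraries, 145 and 118 CPM, with a ratio of 0.817 (0.656 to 1.01). Lining fibroblast-like cells held 1316 and 892 CPM, and loose fibroblast-like cells 1244 and 1178. Over all cells it stood at 506 and 499 CPM, where the trace library held 255 endothelial-like cells and the pulse library 41. Endothelial-like trace cells stood far above the rest at 3372 CPM (3242 to 3506), with Hmox1 in 76.0% of thinned cells, while B-lineage-like cells held 18.8 CPM. The share of thinned superficial-zone-like cells with Hmox1 was 37.1% in the pulse and 21.3% in the trace library.

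Nqo1 was the member with fewest UMIs. Superficial-zone-like cells held 28.7 CPM (334 UMIs) in the pulse and 8.96 CPM (182 UMIs) in the trace library, 3.20-fold lower (2.67 to 3.86). In the other compared classes it was under 20 CPM in both libraries, with 45 and 1 UMIs in deeper-zone-like cells, a ratio of 0.140 (0.00347 to 0.821). Endothelial-like trace cells again led, at 87.3 CPM (67.5 to 111).

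Further genes of the antioxidant and NRF2 pathway were spread around the median of all genes. Of 45 fixed by name, 32 were measured in superficial-zone-like cells, of which 2 were at least 2-fold higher and 3 at least 2-fold lower, with a median log2 ratio of -0.23. Deeper-zone-like cells had 3 higher and 7 lower of 33, lining fibroblast-like cells 1 and 5 of 37, and loose fibroblast-like cells 2 and 6 of 41, with medians of -0.35, -0.17 and -0.26. Over all genes the medians of the 4 classes were -0.24, -0.40, -0.28 and -0.32. Of all genes 8.86%, 21.2%, 10.1% and 15% were lower, and 1.99%, 3.31%, 1.84% and 3.85% were higher. The lower shares of the list in deeper-zone-like and loose fibroblast-like cells were thus at the level of all genes. The higher shares in the chondrocyte classes, on 2 and 3 genes, lay above that level. Gstp1, a glutathione transferase, stood at 75.2 and 14.0 CPM in superficial-zone-like cells, 5.36-fold lower (4.68 to 6.15). Srxn1, which restores oxidised peroxiredoxins, was 3.87-fold lower there (3.42 to 4.38) and 4.07-fold lower in lining fibroblast-like cells. Gclc, the catalytic subunit of the first enzyme of glutathione synthesis, stood at 149 and 52.6 CPM and was at least 2-fold lower in each of the 4 classes, as was Gstp1. Selenow, a small selenoprotein, was higher in the trace library, at 33.8 and 87.0 CPM, a ratio of 2.58 (2.31 to 2.88).

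Txnip was lower in trace deeper-zone-like cells, at 70.6 against 222 CPM, 3.14-fold lower (2.42 to 4.16). In the other 3 classes the interval of its ratio included no difference, with 47.5 and 43.4 CPM in superficial-zone-like, 113 and 118 in lining and 386 and 336 in loose fibroblast-like cells. Mural-like cells held the most in the trace library, 681 CPM. Of 7 genes of its arrestin family and their regulators, 2 were measured. Arrdc3 had ratios of 0.802 in superficial-zone-like and 0.488 in deeper-zone-like cells. Mlxip, which encodes a glucose-sensing factor that drives Txnip, had 0.940 and 0.935. Among 8 hypoxia genes, of which 7 were measured in each chondrocyte class, the median log2 ratio was 0.31 in superficial-zone-like and -0.76 in deeper-zone-like cells. Bnip3, a mitophagy receptor, had ratios of 1.67 and 0.630, the peptide hormone gene Adm 1.67 and 0.590, the angiogenic factor Vegfa 1.24 and 0.664, and Pdk1, which keeps pyruvate from the mitochondria, 1.87 and 0.990. None of the 7 was past 2-fold in superficial-zone-like cells, against 1.99% higher and 8.86% lower over all genes. In deeper-zone-like cells 0 were at least 2-fold higher and 3 lower, against 21.2% lower over all genes. These 3, named after their values were seen, were Egln3, an oxygen-sensing prolyl hydroxylase, at a ratio of 0.224 (0.115 to 0.397), Ndrg1 at 0.398 (0.331 to 0.475) and Ankrd37 at 0.447 (0.210 to 0.847). In the lining and loose fibroblast-like cells 0 of 3 and 0 of 5 hypoxia genes were higher, and 0 and 1 lower. Over all genes of these classes 1.84% and 3.85% were higher and 10.1% and 15% lower.

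**Figure D4:**
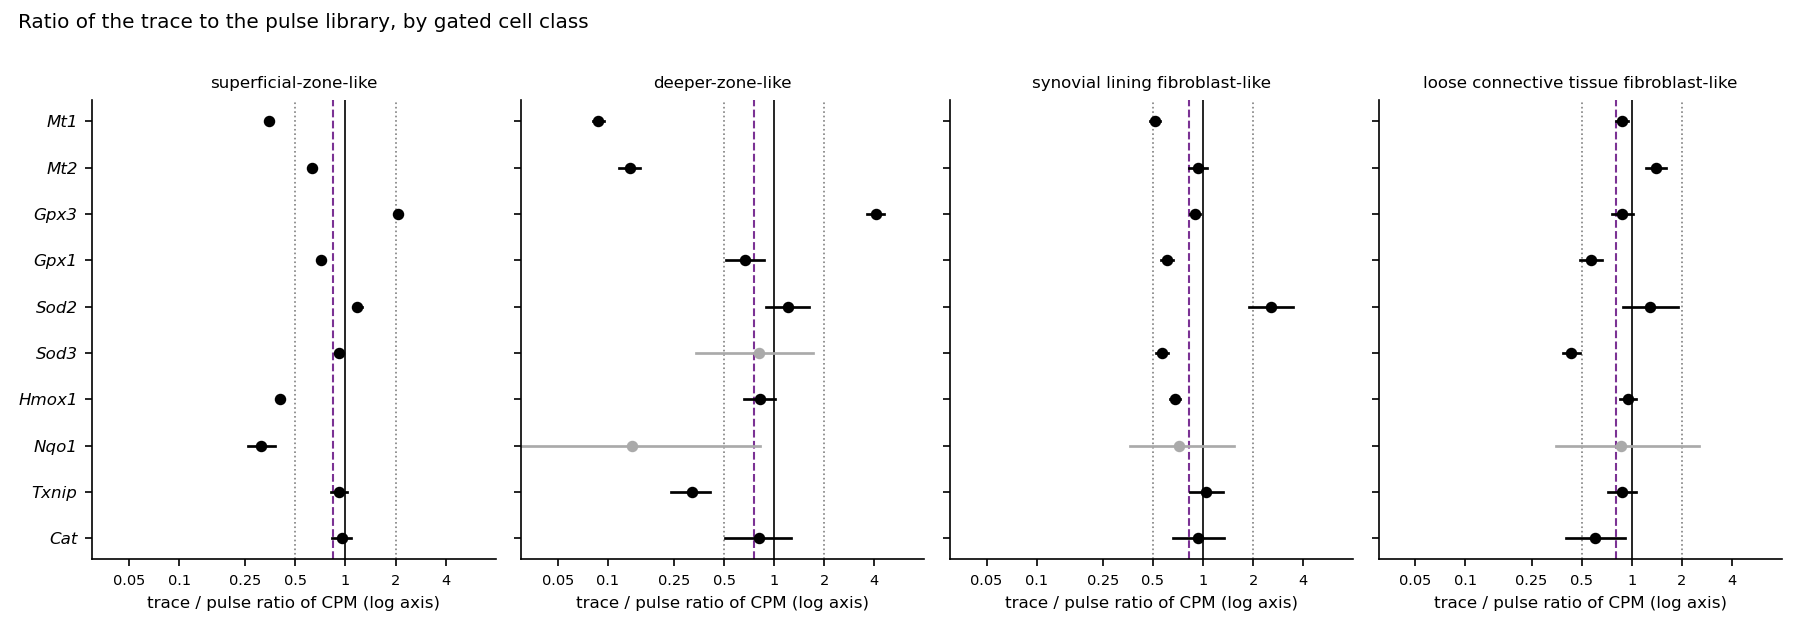
Ratio of trace over pulse levels (log axis) of the 10 genes in the 4 compared classes, with exact 95% intervals; grey points are under 20 CPM in both libraries, dotted lines mark 2-fold and the dashed line the median of all genes of the class. The grey Nqo1 interval of deeper-zone-like cells runs past the left edge to 0.00347. Mt1 lies furthest left in deeper-zone-like cells, at 0.0876, and Gpx3 furthest right, at 4.08.

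Calls were counted at 2-fold for genes that reached 20 CPM in either library. The 10 genes measured in superficial-zone-like cells had 1 higher (Gpx3) and 3 lower (Mt1, Hmox1 and Nqo1) in the trace library. Of all 6240 genes there, 1.99% were higher, 8.86% lower and 10.8% either. In deeper-zone-like cells 8 were measured, of which Gpx3 was higher and Mt1, Mt2 and Txnip were lower, where 3.31%, 21.2% and 24.5% of 6558 genes were higher, lower and either. In lining fibroblast-like cells 9 were measured and Sod2 was higher with 0 lower, against 1.84%, 10.1% and 12%. In loose fibroblast-like cells 9 were measured and Sod3 was lower with 0 higher, against 3.85%, 15% and 18.9%. Over all cells Gpx3 was higher and Mt1 and Mt2 lower, against 3.59%, 9.14% and 12.7% of 6638 genes. Since the ratio of the libraries was known when the genes were chosen, nothing is read from these counts. The Gpx3 calls in superficial-zone-like and all cells were lost after thinning (log2 0.99 in superficial-zone-like cells) and with a mean over cells (0.86), where the Sod2 call was also lost (0.90). The Sod3 call was lost under joint clustering (-0.69) and with the median ratio set to 1 (-0.88), and Mt1 in lining fibroblast-like cells passed 2-fold with a mean over cells (-1.08). The log2 ratio of Mt2 over all cells ran from -1.31 to -0.75 over the alternatives, so that call was not kept throughout. That of Nqo1 over all cells, -0.97 in the main setting, ran from -1.32 to -0.77. The median log2 ratio of the measured members was -0.32, -0.44, -0.15 and -0.20 in the order of classes above, and that of all genes was -0.24, -0.40, -0.28 and -0.32.

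Transcripts of other classes, a readout of free RNA, differed between the libraries. Col2a1, the cartilage collagen, stood in lining fibroblast-like cells at 175 CPM in the pulse and 25.1 CPM in the trace library, and at 206 and 14.7 CPM in loose fibroblast-like cells. In pulse deeper-zone-like cells Col2a1 was at 28744 CPM. Prg4, the superficial zone lubricant, stood at 58.6 and 171 CPM in deeper-zone-like cells and 9085 and 26327 in superficial-zone-like cells. Over all cells Prg4 was at 6607 and 20015 CPM and Col2a1 at 10348 and 2177 CPM, the same directions as in these classes. The levels in other classes were not scaled to those over all cells, so no difference in the amount of free RNA is read from them. The osteonectin gene Sparc stood at 33960 and 4492 CPM in superficial-zone-like cells, so it took more of the pulse total. The neutrophil gene S100a8 stood at 0.380 and 7.18 CPM in deeper-zone-like cells. Of these 5 genes, counting S100a9, 3 were measured in superficial-zone-like cells: Sparc, Prg4 and Col2a1. Of these 1 was higher and 1 lower, against 1.99% and 8.86% of all genes. Prg4 is a marker of that class and Col2a1 of chondrocytes, so this count is not a readout of free RNA. In deeper-zone-like cells 4 were measured, with 2 higher and 0 lower, against 3.31% and 21.2%. Col2a1, a marker of chondrocytes, was among them. The part of the 5 genes in the members' ratios was not tested. Chondrocytes whose zone the markers did not settle numbered 789 and 369, and held 3141 and 546 CPM of Mt1, and 306 and 736 CPM of Gpx3, pulse value first. Cells between classes, where doublets would fall, numbered 276 and 686 and held 2138 and 849 CPM of Mt1. At the cut on genes per cell, the 182 pulse cells just inside, with under 600 genes, held 1830 CPM of Mt1 and the 197 just outside, with 400 or more, held 1484, and in the trace library 459 and 449 such cells held 469 and 534.

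Across the 14 class and library sums of at least 50 cells, the members fell into different patterns, given as correlations of log2(CPM + 1) that rest on shared libraries and depths. Mt1 and Mt2 ran together (Pearson r 0.95), as did Mt2 and Gpx3 (0.87) and Gpx1 and Sod3 (0.72), whereas Gpx3 and Sod2 ran apart (-0.48). Of 4422 genes that reached 100 CPM in a sum, those most like Mt1 were Rcn3 (0.92), Lgr4 (0.91) and Ccdc80 (0.90), and those most like Mt2 were Rcn3, Bgn and Naaladl2. Gpx3 was most like Fap (0.96), a fibroblast surface protease, then Clmp and Htra1. Sod3 was most like Tnxb (0.95), which encodes a tenascin of loose connective tissue, then Angptl7 and Barx1. Hmox1 was most like Slco3a1 (0.92), Ifitm3 and Esd, and Nqo1 most like Slk (0.90), Cep170 and Pvr. Gpx1 was nearest to Ugp2, Capg and Sv2c, Txnip to Zfp36, Magi3 and Elmsan1, and Cat to Sarnp, Ddx54 and Rtf1. Sod2 had the loosest match, Map3k20 (0.79), then Cycs and Isy1.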

How the data were processed

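Single-cell RNA was measured in 2 libraries of sorted tdTomato-positive knee joint cells, prepared per the labels' protocols with 10x Genomics 3' chemistry (V2). The files the authors deposited hold UMI counts, not normalized. Cell Ranger 7.1.0 made them per the file headers, but 3.0.1, with the mm10 build, is the version in the submitters' processing notes, and which is right was not settled. DESeq2, Seurat, HTSeq and STAR appear in those notes without a role. The counting of intron reads or of strand is not given in the sources used here. Only called barcodes were deposited, the lowest with 500 UMIs.

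Cells with 500 or more genes and at most 10% mitochondrial UMIs were kept, which left out 330 pulse and 1176 trace barcodes. A cell was gated to the class with the highest share of its markers detected, over 13 marker lists, given at least 3 markers and a share 1.5 times that of the next class. The same lead split chondrocytes by zone. Leukocytes entered as 1 class, by the highest of their 3 lists, and were then split by the same lead between the neutrophil and B-lineage lists, with the rest called other leukocyte-like. Of the kept cells, 76.0% in the pulse and 77.8% in the trace library reached a class. Counting chondrocytes of unclear zone, 347 and 681 cells led the next class by under 2 times. Scrublet, run through scanpy 1.11.5, marked 0 cells at its own threshold and so did not work. Cells between classes were left out of all classes, and leaving out the highest 5% of scores was an alternative. In joint Leiden clusters, 92.7% or more of the cells gated to each compared class and library took the same class. The reverse did not hold for loose fibroblast-like cells. The cluster named for them held 855 pulse and 1357 trace cells, and 59.9% of its gated cells were of that class.

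UMIs were summed per class and library and scaled to the total of the class (CPM), with exact Poisson 95% intervals. Ratios carry exact conditional Poisson intervals and shares exact Clopper-Pearson intervals, all for counting error only. Each group had 1 library, so nothing was tested across samples. Genes were counted at 2-fold where they reached 20 CPM in at least 1 library. The steps were tested on simulated data. Members, gene lists (antioxidant and NRF2 pathway, metal handling, glucocorticoid response, Txnip family, hypoxia response, ribosomal RNA-associated transcripts, free-RNA readouts) and markers were chosen with earlier results of these data known. Named from each list were up to 4 genes with the largest absolute log2 ratio in superficial-zone-like cells, and for each member the 3 genes with the highest correlation. Tools were pandas 2.3.3, scipy 1.17.1, numpy 2.4.6 and matplotlib 3.10.9 under Python 3.11.15.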

Additional observations from a re-analysis of the deposited data

Results flagged for a closer look

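For 2 members the ratio of trace over pulse went opposite ways in different cell classes, each with an interval clear of 1, and the difference between classes was not tested. Mt2 stood higher in the trace library in loose connective tissue fibroblast-like cells, with a ratio of 1.40 (1.22 to 1.61), and lower in superficial-zone-like cells, at 0.628, and in deeper-zone-like cells, at 0.135. The loose fibroblast-like value rests on 234 pulse UMIs in 167 cells. Its log2 ratio of 0.48 went from -0.07 under classes from joint clustering to 0.81 over the other alternatives.

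Gpx3 stood higher in the trace library in superficial-zone-like cells, at 2.07, and in deeper-zone-like cells, at 4.08, and lower in synovial lining fibroblast-like cells, at 0.900 (0.840 to 0.965). The lining value is close to the median of all genes in that class, and its log2 ratio of -0.15 became 0.12 when the median ratio over all genes was set to 1.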

How the results depend on the processing

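Each count and ratio was recomputed under 13 alternatives, of which joining zone-unclear chondrocytes to the superficial-zone-like class was chosen after seeing the data. Of 124 recomputed counts of members past 2-fold, 114 stayed within 1.5 times. After thinning to 2000 UMIs and with a mean over cells, the count of higher members became 0 in superficial-zone-like cells and 0 over all cells. With a mean over cells it also became 0 in lining fibroblast-like cells. The count of lower members in loose fibroblast-like cells became 0 under classes from joint clustering and with the median ratio set to 1. In lining fibroblast-like cells it went from 0 to 2 under joint clustering, 1 after thinning and 1 with a mean over cells. The cause was not tested. Of 173 recomputed log2 ratios of members past 2-fold, 163 stayed past it and none changed sign. Over all 620 recomputed ratios, 43 changed sign, 17 of them with the median ratio set to 1, and none of these had a main log2 ratio over 0.48 in size. The log2 ratio of Mt1 ran from -3.63 to -3.11 in deeper-zone-like and -1.93 to -1.28 in superficial-zone-like cells, and that of Gpx3 from 1.92 to 2.43 and 0.86 to 1.29. With the median ratio set to 1, the split of all genes went from 124 higher and 553 lower to 265 and 355 in superficial-zone-like cells, from 217 and 1390 to 513 and 741 in deeper-zone-like, from 116 and 640 to 270 and 327 in lining and from 263 and 1029 to 522 and 542 in loose fibroblast-like cells. With ribosomal RNA-associated transcripts left out of the total it was 187 and 442, 324 and 1109, 209 and 442, and 384 and 797. Without a floor it was 866 and 5348, 6608 and 3344, 640 and 7172, and 702 and 6873, which takes in genes with a few UMIs. Depth limits the values of the 4 compared classes, where 3 UMIs came to 8.84 CPM in loose fibroblast-like and 3.81 in lining fibroblast-like pulse cells and to 3.59 in deeper-zone-like trace cells. No paired analysis was possible because each group had 1 library.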
